A study of Mus musculus with 6 samples.

Results

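This account concerns 10 genes of pericytes and smooth muscle cells, the mural cells that wrap blood vessels and form the muscular coats of tubular organs, in mouse ovary. They were chosen by name, as the rows of the count table whose gene symbol is Acta2, Actg2, Myh11, Tagln, Cnn1, Mylk, Des, Rgs5, Cspg4 or Notch3, and they make up 10 of the 51826 genes in the table. All 10 were among the 19027 genes that passed the filter on low counts. The first 7 encode parts of the contractile apparatus and are called contractile genes here, and Rgs5, Cspg4 and Notch3 are called pericyte genes.

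The tissue was whole ovary from outbred ICR mice, sequenced in bulk as 6 RNA libraries that fall into 3 groups of 2. The first group carries the label COH, which is not spelled out in the sources used here. The second is a model of ovarian hyperstimulation syndrome (OHSS), a complication of ovarian stimulation in which vessels leak fluid, and the third is the same model given nintedanib (bibf1120). The sources used here do not give the animals' age, the stimulation schedule or the dose, route and time of nintedanib. Nothing in them ties each library to an animal of its own, so every p-value here covers the spread between these samples and no more, and that spread may be technical. The series set out to measure ovarian gene expression in OHSS mice under drug treatment, and the comparisons below ask how the mural genes stood in OHSS against COH, with nintedanib against OHSS, and with nintedanib against COH.

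Smooth muscle cells shorten when myosin light chain kinase switches on smooth muscle myosin, which then pulls on actin filaments. Many genes of this machinery are switched on by serum response factor with its partner myocardin, through a DNA motif called the CArG box. Pericytes sit on capillaries, depend on platelet-derived growth factor (PDGF) from the endothelium and carry Notch receptors. In the ovary, smooth muscle lies in the arterial walls and the theca externa, the outer layer of the follicle, and pericytes accompany the new capillaries of the corpus luteum. Nintedanib blocks the tyrosine kinases of the receptors for vascular endothelial growth factor, fibroblast growth factor and PDGF, the last of these being the receptor on pericytes.

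The promoters of 4 members are printed because these genes mark the extremes of the data. Acta2 was the most abundant member per length and the steadiest across libraries, Cnn1 and Des were the most uneven, and Rgs5 had its highest value in the library where both were lowest. They were chosen after the values were seen. Each sequence is the 250 bases before the RefSeq start of the gene on the assembly GRCm38.p6, printed 5′ to 3′ on the gene's strand, with CArG boxes that hold up to 1 mismatch in capitals.
Acta2 (chr19:34255374-34255623, minus strand): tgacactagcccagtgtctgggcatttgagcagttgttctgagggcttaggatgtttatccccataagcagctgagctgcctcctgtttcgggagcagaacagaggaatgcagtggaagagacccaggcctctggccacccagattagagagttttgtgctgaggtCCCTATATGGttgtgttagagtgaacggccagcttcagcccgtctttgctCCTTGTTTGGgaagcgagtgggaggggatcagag
Cnn1 (chr9:22099003-22099252, plus strand): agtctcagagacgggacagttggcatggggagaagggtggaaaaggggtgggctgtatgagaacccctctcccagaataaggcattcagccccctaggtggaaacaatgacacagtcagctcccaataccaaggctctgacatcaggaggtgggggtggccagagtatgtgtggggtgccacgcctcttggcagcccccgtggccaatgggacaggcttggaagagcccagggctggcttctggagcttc
Des (chr1:75360042-75360291, plus strand): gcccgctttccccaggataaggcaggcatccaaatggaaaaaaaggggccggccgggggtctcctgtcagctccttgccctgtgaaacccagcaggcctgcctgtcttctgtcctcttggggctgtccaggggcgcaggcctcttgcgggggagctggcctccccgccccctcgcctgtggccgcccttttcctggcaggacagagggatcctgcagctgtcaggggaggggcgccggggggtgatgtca
Rgs5 (chr1:169655251-169655500, plus strand): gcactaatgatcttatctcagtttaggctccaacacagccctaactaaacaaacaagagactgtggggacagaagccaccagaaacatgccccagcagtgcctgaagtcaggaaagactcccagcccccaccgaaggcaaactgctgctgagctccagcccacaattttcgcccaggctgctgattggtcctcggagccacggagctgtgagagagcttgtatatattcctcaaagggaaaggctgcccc
The Acta2 window held 2 such boxes, which begin 84 and 34 bases before the start, each with 1 mismatch. Of the 7 members with a RefSeq promoter entry, Acta2 and Cspg4 had matches, and the windows of Cnn1, Des, Mylk, Notch3 and Rgs5 did not. Actg2, Myh11 and Tagln had no entry. The CArG box equals its own reverse complement, so 1 search covers both strands. Across all 32536 RefSeq windows of this length, 18.6% held a CArG box with up to 1 mismatch and 1.48% held one with none. The sequence TATAAA, on either strand, was in 12.3% of all windows and in none of the 7. A match describes these letters only, and its absence says only that the letters are not in this window. The counts were made on a build that the submitters' processing notes name mm8, so these coordinates belong to the RefSeq table alone.

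The libraries held 28498435 to 34716751 counts in all, with 24712 to 25796 genes detected in each. The 10 members together took 0.177% to 0.212% of the counts, and the smallest count of any member in any library was 476, for Cspg4. Counting error is small beside the widest spreads, such as that of Des under nintedanib (1032 and 3650 counts). For close pairs, such as Notch3 in COH (2327 and 1801 counts, 65.4 and 63.1 CPM), it may make up much of the spread. Markers of other muscle were low, with exceptions among the heart muscle genes. Acta1, Myh4, Myh1, Tnnc2 and Myh2 of skeletal muscle and Myh6 and Myh7 of heart muscle were under 1 CPM (1 count per 1000000) in all 6 libraries, as were Foxj1, Tekt1, Dnah5 and Ccdc153 of the oviduct's ciliated cells. Of the other heart muscle markers, Tnni3 was at 25.8 to 37.4 CPM over the 6 libraries, Actc1 at 2.25 to 18.7 and Tnnt2 at 1.91 to 4.24. The summed level of the 8 skeletal muscle markers was 2.59 to 3.15 CPM in COH, 3.63 to 4.06 in OHSS and 2.12 to 2.49 under nintedanib. That of the 7 oviduct markers was 8.29 to 15.3 CPM over all libraries. Not all oviduct markers were low: Rsph1 was at 4.40 to 12.8 CPM, Ovgp1 at 0.665 to 3.38 and Pax8 at 0 to 1.03. In whole tissue, fewer cells of a type and less RNA per cell cannot be told apart.

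**Figure D1:**
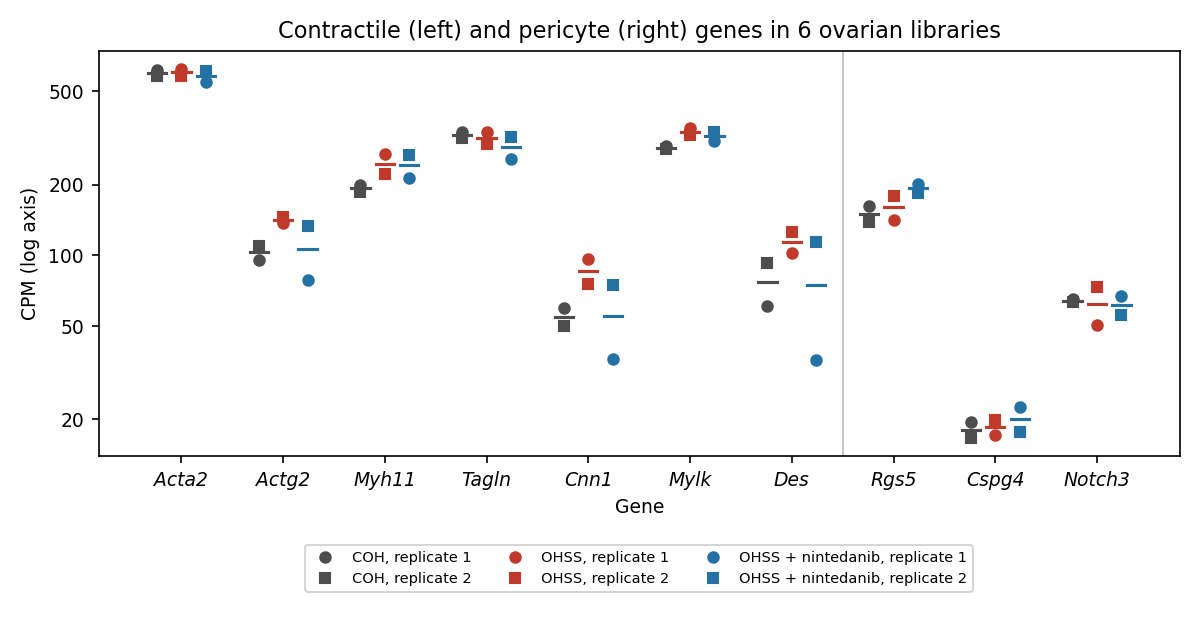
CPM on a log axis for the 10 members in the 6 libraries, with a circle for replicate 1, a square for replicate 2 and a bar at the mean of the 2 libraries of each group (COH, OHSS and OHSS with nintedanib). Acta2 and Tagln stay within a narrow band, while the 2 nintedanib libraries stand apart for Des (35.8 and 113.8 CPM), Cnn1 (36.0 and 74.8) and Actg2 (78.4 and 134.0).

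Levels are given in CPM, which are counts scaled to a common library size corrected by TMM. Levels were also divided by the joint length of all annotated exons of a gene, which allows a rough comparison of genes. A gene whose exons are not all in use would come out too low. By this measure Acta2 averaged 270.2 CPM per kilobase over the 6 libraries, rank 133 among the tested genes with a known length. Acta2 encodes smooth muscle alpha-actin, which contractile cells of vessels and of the theca externa share. Tagln, which encodes the actin-binding protein transgelin, followed at 156.2 CPM per kilobase, and Actg2, the gamma-actin of visceral smooth muscle, at 75.2. Rgs5, a regulator of G protein signalling that marks pericytes, stood at 37.0. Myh11, the heavy chain of smooth muscle myosin, came next at 29.8 and Mylk, the myosin light chain kinase, at 28.0. Cnn1, the actin-binding protein calponin, reached 23.9 CPM per kilobase, and Des, the intermediate filament protein desmin, 23.6. Notch3, the Notch receptor of mural cells, was at 7.73. Cspg4, the proteoglycan NG2 on the pericyte surface, was lowest at 1.59 CPM per kilobase, rank 12398. Neighbours such as Myh11 and Mylk, or Cnn1 and Des, differ by less than their spread over libraries.

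The members fell into steady and uneven genes. From the lowest to the highest of the 6 libraries, the CPM of Acta2 spanned a factor of 1.13, that of Mylk 1.23 and that of Tagln 1.3. Actg2 spanned 1.86, Cnn1 2.67 and Des 3.53. The other 4, Cspg4, Myh11, Rgs5 and Notch3, spanned 1.36 to 1.46. For Tagln, the antisense gene Gm48529 shares 62.4% of its exon bases in the GENCODE M21 annotation. The sources used here do not say whether strand was used in counting, so the Tagln count is uncertain. At most 483 counts in a library were assigned to Gm48529. Pcsk7, also on the opposite strand, shares 5.43% of the Tagln exon bases and had at most 1182 counts. Both maxima rest on the same unknown counting, so they do not bound the error. Acta2 and Actg2 shared no read-length stretch with the other actin genes.

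In OHSS against COH, 5 of the 7 contractile genes stood higher in both OHSS libraries than in either COH library, and no member passed the test, which asks for an adjusted p below 0.05. These were Actg2, Myh11, Cnn1, Mylk and Des. Actg2 measured 95.9 and 110.1 CPM in COH and 137.8 and 145.9 in OHSS. Myh11 measured 200.2 and 185.7 against 269.5 and 221.4, and Mylk 292.7 and 283.5 against 348.2 and 324.7. For each of these 3 the lower OHSS library lay above the higher COH library. Cnn1 was at 59.5 and 50.1 CPM in COH and at 96.3 and 75.8 in OHSS. Des was at 61.0 and 93.0 in COH and at 102.0 and 126.3 in OHSS, so its groups were separated by less than the gap within COH.

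On the log2 scale the difference, OHSS minus COH, was 0.65 for Cnn1 with a 95% interval of -0.24 to 1.54, 0.57 for Des (-0.80 to 1.93) and 0.46 for Actg2 (-0.19 to 1.11). It was 0.35 for Myh11 (-0.06 to 0.75) and 0.22 for Mylk (-0.03 to 0.48). All 5 intervals include 0. Des moved most when 1 library was left out, to 0.30 without replicate 1 of COH and to 0.91 without replicate 2. The smallest p was that of Mylk, 0.0723 in edgeR's quasi-likelihood test, with an adjusted p of 0.604 (Benjamini-Hochberg over all genes tested). The members' adjusted p ran from 0.604 to 0.988. By background, 21.2% of all tested genes stood higher in OHSS without overlap and 22.9% lower. Among the members 5 of 10 stood higher without overlap and 0 lower. By sign alone, 8 of the 10 were higher, beside 49.6% of tested genes, and with library size as the only scaling Acta2 and Cspg4 turned lower. An adjusted p below 0.05 was reached by 0.0105% of tested genes and by 0 members, and an unadjusted p below 0.05 by 8.82% of tested genes and again 0 members in edgeR. At the adjusted threshold DESeq2 called 1.83% of tested genes and limma voom none, and each called 0 members. DESeq2 put Mylk at an unadjusted p of 0.0365.

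The other contractile genes, Acta2 and Tagln, had overlapping groups. Acta2 measured 614.3 and 582.2 CPM in COH and 621.7 and 582.8 in OHSS, a log2 difference of 0.01 with a 95% interval of -0.27 to 0.29. Tagln measured 336.3 and 317.2 against 334.3 and 298.7, a difference of -0.05 (-0.39 to 0.30). Both intervals leave room for changes of about the size seen for Mylk. The 3 pericyte genes overlapped as well. Rgs5 averaged 150.6 ± 17.0 CPM in COH and 160.6 ± 26.0 in OHSS (SD, n = 2 each, as throughout), Cspg4 18.1 ± 2.04 and 18.5 ± 1.88, and Notch3 64.2 ± 1.64 and 62.0 ± 16.3. Their log2 differences were 0.09, 0.03 and -0.05. The median difference was 0.35 over the contractile genes, 0.03 over the pericyte genes and 0.16 over all 10, beside -0.0030 over all genes tested.

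**Figure D2:**
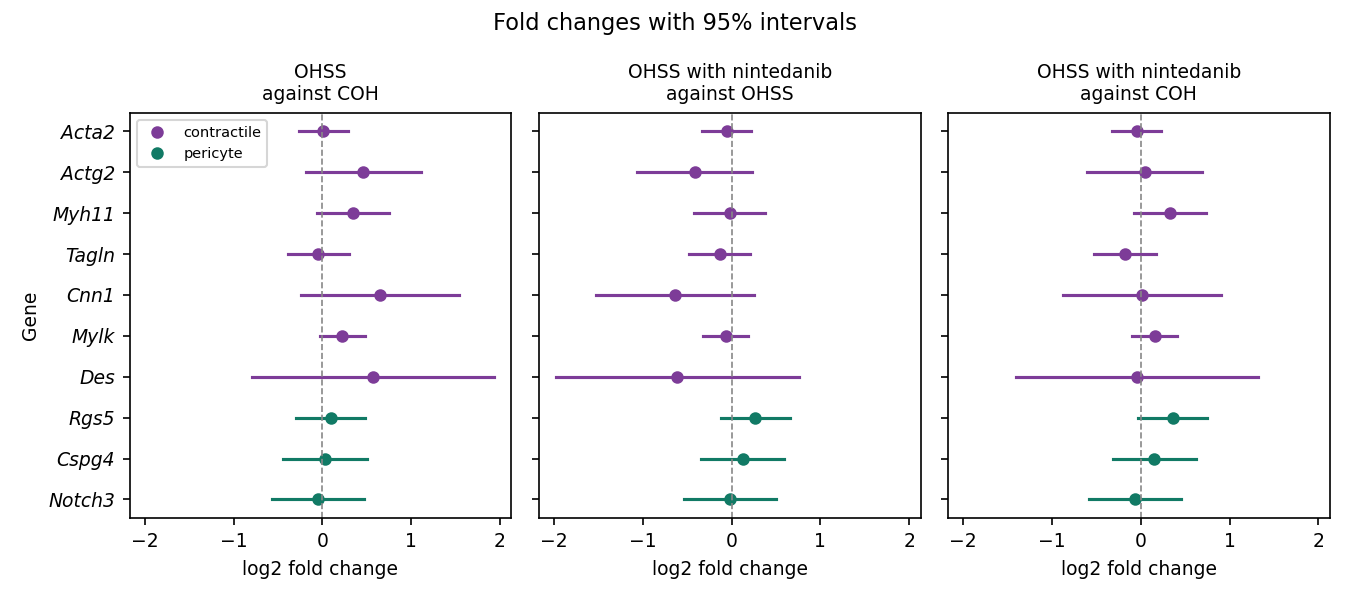
Log2 fold change of each member with its 95% interval from edgeR's quasi-likelihood fit, in the 3 comparisons, with contractile and pericyte genes in different colours. All 30 intervals cross 0, with the widest for Des (-0.80 to 1.93 in OHSS against COH).

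With nintedanib against OHSS, all 7 contractile genes had a lower fitted level, Rgs5 and Cspg4 a higher one, and no member passed the test. With library size as the only scaling Acta2, Myh11 and Mylk turned slightly higher. Both nintedanib libraries lay below both OHSS libraries for Actg2 and Cnn1, and above them for Rgs5. Actg2 was at 78.4 and 134.0 CPM with nintedanib against 137.8 and 145.9 in OHSS, a log2 difference of -0.42 with a 95% interval of -1.07 to 0.23. Cnn1 was at 36.0 and 74.8 against 96.3 and 75.8, a difference of -0.63 (-1.53 to 0.26). Its second nintedanib library nearly touched the lower OHSS library. Rgs5 was at 201.7 and 184.8 CPM against 142.2 and 178.9, a difference of 0.27 (-0.12 to 0.66). That of Rgs5 was 0.09 without replicate 1 of OHSS and 0.45 without replicate 2, the latter at an edgeR p of 0.0397 and an adjusted p of 0.810. Des had the largest fitted gap after Cnn1, -0.61 (-1.98 to 0.76), but its nintedanib libraries, 35.8 and 113.8 CPM, fell on both sides of the lower OHSS library.

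Acta2, Myh11 and Mylk differed by -0.06, -0.02 and -0.07, and Tagln by -0.13. Cspg4 differed by 0.12 and Notch3 by -0.02, and these 6 overlapped between the groups. The median was -0.13 over the contractile genes, 0.12 over the pericyte genes and -0.06 over all 10, beside 0.01 over all genes tested. Without overlap, 1 of 10 members stood higher and 2 lower, beside 19.2% and 16.9% of all tested genes. By sign alone, 2 of the 10 were higher, beside 51.5% of tested genes. The adjusted threshold was passed by 0.00526% of tested genes and the unadjusted one by 7.42%. By edgeR, 0 members passed either of them. DESeq2 called 1.12% of tested genes at the adjusted one and limma voom 0.00526%, and each called 0 members. The smallest member p was 0.129, for Cnn1 in edgeR, with an adjusted p of 0.729.

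The nintedanib libraries did not agree on the contractile genes, and replicate 1 was the lowest of all 6 libraries for 5 of the 7: Acta2, Actg2, Tagln, Cnn1 and Des. For comparison, 14.1% of all tested genes had their lowest library there. It was also the highest library for Rgs5 (201.7 CPM) and Cspg4 (22.7), as it was for 14.0% of tested genes. Des was 3.18-fold higher in replicate 2 than in replicate 1, a gap that 5.91% of tested genes exceeded. Cnn1 was 2.08-fold higher in replicate 2 and Actg2 1.71-fold, gaps exceeded by 13.0% and 19.5% of tested genes. Myh11 was 1.25-fold higher, Tagln 1.23, Acta2 1.11 and Mylk 1.09. Rgs5, Cspg4 and Notch3 leaned the other way, higher in replicate 1 by 1.09-, 1.29- and 1.20-fold. Over all tested genes, the median log2 gap between the nintedanib libraries was 0.27, beside 0.20 in COH and 0.26 in OHSS.

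Averaged over the 7 contractile genes after each gene was centred on its mean log2 CPM, replicate 1 of nintedanib stood at -0.43 and replicate 2 at 0.20. The COH libraries stood at -0.12 and -0.09, and the OHSS libraries at 0.26 and 0.17. By this average the second nintedanib library sat among the OHSS libraries, and the first below all others. The low average of the first came mostly from Des (-1.19), Cnn1 (-0.79) and Actg2 (-0.54). Tagln stood at -0.26 there, Acta2 at -0.11, Myh11 at -0.06 and Mylk at -0.03. Myh11 and Mylk in that library lay above both COH libraries. The same average over the 3 pericyte genes was 0.22 in replicate 1 of nintedanib and -0.03 in replicate 2, and 0.03 and -0.14 in COH. In OHSS it was -0.22 and 0.14, so the pericyte genes differed more within OHSS than between the group averages. Contractile minus pericyte average ran from -0.64 in replicate 1 of nintedanib to 0.48 in replicate 1 of OHSS, and the 3 groups overlapped.

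**Figure D3:**
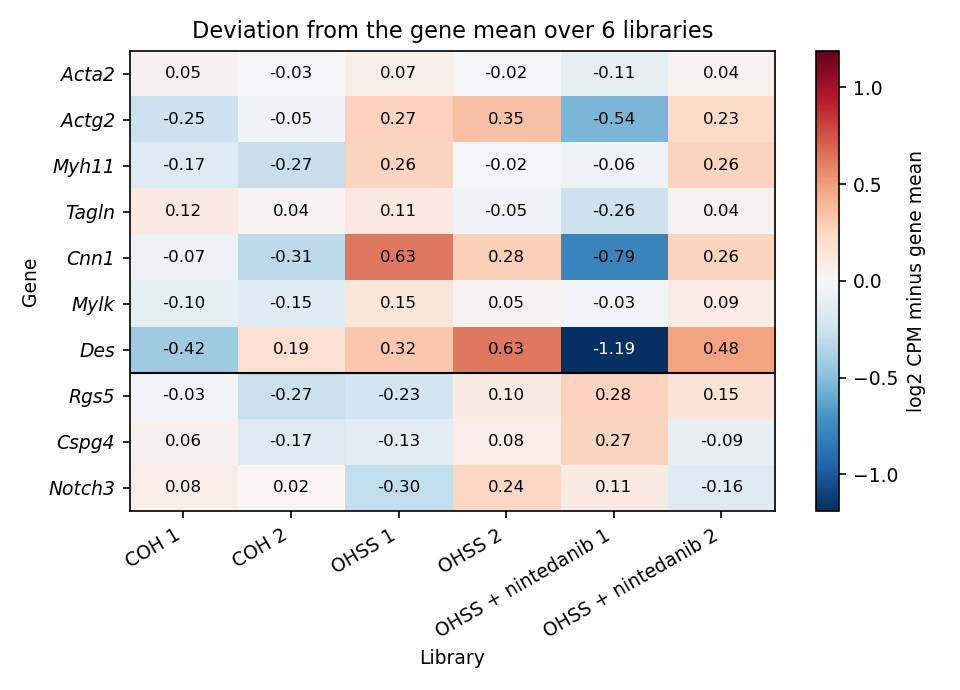
Deviation of each member's log2 CPM from its own mean over the 6 libraries, as a grid of genes (rows) by libraries (columns) with red above and blue below the mean and the value printed in each field. A line parts the contractile genes (top) from the pericyte genes, and the column of replicate 1 of nintedanib is darkest blue for Des, Cnn1 and Actg2.

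Leaving out each nintedanib library in turn gave different values for the uneven genes. Without replicate 1, the nintedanib minus OHSS difference was -0.0049 for Des, -0.20 for Cnn1 and -0.08 for Actg2, and 3 of the 7 contractile genes stood higher with nintedanib. Without replicate 2, it was -1.67 for Des, -1.26 for Cnn1 and -0.86 for Actg2. In that fit the edgeR p of these 3 genes was 0.00516, 0.00352 and 0.00276, with adjusted p of 0.587, 0.525 and 0.525. The single nintedanib library left in each fit is assumed to vary like the other groups. Other lists also differed between the nintedanib libraries. The summed level of 7 immediate early genes, which respond quickly to handling, was 560 CPM in replicate 1 and 1310 in replicate 2, with 840 and 1175 in COH and 476 and 607 in OHSS. The heat shock genes Hspa1a and Hspa1b, listed with them, summed to 93.5 and 528 CPM, with 177 and 254 in COH and 71.5 and 101 in OHSS. The steroid enzyme gene Cyp17a1, a theca marker, was at 2464 CPM in replicate 1 and 734 in replicate 2, while the other 7 theca and stroma markers summed to 2939 and 3146. The part of these differences in the contractile values was not tested.

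With nintedanib against COH, Myh11, Mylk and Rgs5 stood higher in both nintedanib libraries than in either COH library, and no member passed the test. Myh11 was at 214.7 and 269.1 CPM with nintedanib against 200.2 and 185.7 in COH, a log2 difference of 0.33 with a 95% interval of -0.08 to 0.73. Mylk was at 308.2 and 334.4 against 292.7 and 283.5, a difference of 0.16. Rgs5 was at 201.7 and 184.8 against 162.6 and 138.5, a difference of 0.36 (-0.03 to 0.75). Its edgeR p of 0.0633 was the smallest of any member in any comparison, with an adjusted p of 0.526. Of the rest, Tagln differed by -0.18, Cspg4 by 0.15 and Notch3 by -0.07. Acta2, Actg2, Cnn1 and Des differed by -0.05, 0.04, 0.02 and -0.04, although the means of the latter 3 join a nintedanib library below COH and another above it.

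Without overlap, 3 of 10 members stood higher and 0 lower, beside 22.3% and 22.7% of all tested genes. In edgeR 0.0263% of tested genes passed the adjusted threshold and 9.7% the unadjusted one. By edgeR, 0 members passed either of them. DESeq2 called 2.43% of the genes it adjusted and limma voom 0.0105%, and each called 0 members. By sign alone, 6 of the 10 stood higher and 4 lower, beside 49.9% of tested genes higher, and the members' median was 0.03. The comparisons share libraries in pairs, so a low or high library enters both comparisons that use its group.

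Beyond the members, 30 further genes of the contractile apparatus and cytoskeleton were listed. Among them were tropomyosins, alpha-actinin, regulators of myosin phosphatase and small heat shock proteins of muscle. Not all are particular to smooth muscle, and the most abundant were Flna and Myl6. In whole ovary their values do not show which cells they came from. All 30 were tested, and edgeR called none of them at an adjusted p below 0.05 in any of the 3 comparisons. DESeq2 called 2 in OHSS against COH, 2 with nintedanib against OHSS and 1 with nintedanib against COH, which are given below. The DESeq2 background is 1.83%, 1.12% and 2.43% of the genes it adjusted, in that order. In OHSS against COH 22 of the 30 stood higher, with a median log2 difference of 0.17, and 5 had an unadjusted edgeR p below 0.05 in the higher direction and 0 in the lower. The background is 4.59% of tested genes in the higher direction and 4.24% in the lower, and by sign 49.6% stood higher. The 5 were Hspb7, Actn1, Tpm1, Ppp1r12a and Synpo2. Without replicate 1 of COH the count was 1 and without replicate 2 of COH it was 3, and with library size as the only scaling it was 3. With nintedanib against OHSS 22 of the 30 stood lower, with a median of -0.18, and 6 had an unadjusted p below 0.05 in the lower direction and 1 in the higher. The background is 3.47% and 3.95% of tested genes, and by sign 51.5% stood higher. The count of 6 was 3 without either COH library and 3 with library size only. With nintedanib against COH the median was -0.01, with 13 higher and 17 lower, and 2 and 1 of them at an unadjusted p below 0.05, beside 5.62% and 4.08% of tested genes.

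Other lists differed beside these contractile genes. The mitochondrial genome supplied 5.21% and 5.96% of the counts in COH, 6.80% and 7.10% in OHSS and 5.88% and 5.72% under nintedanib, a measure of RNA quality and cell content. All 8 mitochondrial transcripts listed had a higher fitted level in OHSS than in COH, with a median log2 difference of 0.30, and a lower one with nintedanib than in OHSS, with a median of -0.37. Against OHSS, 6 of 6 granulosa cell markers stood higher with nintedanib (median 0.65, 3 at an unadjusted edgeR p below 0.05) and 5 of 5 luteal cell markers lower (median -0.27, 0 at that p). Of all tested genes, 3.95% reached that p in the higher direction and 3.47% in the lower. By sign, 49.6% of tested genes stood higher in OHSS than in COH and 51.5% higher with nintedanib than in OHSS. The granulosa markers summed to 2670 and 2728 CPM in COH, 2830 and 2710 in OHSS and 4344 and 3769 under nintedanib. The luteal markers summed to 21073 and 22641 CPM, 25425 and 24245, and 21801 and 19088 in the same order. The part of these lists in the contractile values was not tested.

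Hspb7, a small heat shock protein of heart and smooth muscle, measured 7.76 and 7.28 CPM in COH, 13.2 and 11.3 in OHSS and 7.42 and 7.01 under nintedanib. The log2 difference was 0.70 (SE 0.174) for OHSS against COH and -0.76 (SE 0.174) for nintedanib against OHSS. The edgeR adjusted p was 0.522 and 0.638, and that of DESeq2 0.0350 and 0.0223. Actn1, the alpha-actinin that crosslinks actin filaments, measured 222.5 and 234.9 CPM in COH, 297.5 and 282.0 in OHSS and 215.8 and 224.6 under nintedanib. The differences were 0.34 (SE 0.0943) and -0.40 (SE 0.0944), with edgeR adjusted p of 0.533 and 0.645 and DESeq2 adjusted p of 0.0464 and 0.0179. For Hspb7 and Actn1, unlike Des and Cnn1, both nintedanib libraries sat close together. Tpm1, a tropomyosin that lies along the actin filament, was at 286.0 and 291.8 CPM in COH, 388.1 and 340.4 in OHSS and 303.8 and 289.1 under nintedanib, and neither tool called it. Kcnmb1, the beta subunit that tunes the large potassium channel of smooth muscle, was at 12.8 and 12.8 CPM in COH, 15.7 and 14.1 in OHSS and 7.91 and 10.4 under nintedanib. Its nintedanib minus OHSS difference was -0.70 (SE 0.190), with an edgeR adjusted p of 0.653.

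Casq2, a calcium-storing protein of muscle, measured 2.75 and 2.42 CPM in COH, 4.79 and 2.54 in OHSS and 6.35 and 7.39 under nintedanib. The nintedanib minus COH difference was 1.41 (SE 0.362), and DESeq2 called it at an adjusted p of 0.0318 while edgeR, at 0.474, did not. Beside these muscle genes, Actc1, the cardiac actin, was at 18.7 CPM in replicate 2 of OHSS and at 2.25 to 6.97 in the other 5 libraries. The summed level of the 5 heart muscle markers was 37.2 and 39.8 CPM in COH, 35.0 and 54.6 in OHSS and 33.4 and 45.3 under nintedanib. Like the contractile average, this sum and that of the skeletal muscle markers were lowest in replicate 1 of nintedanib, and their part in the contractile values was not tested.

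**Figure D4:**
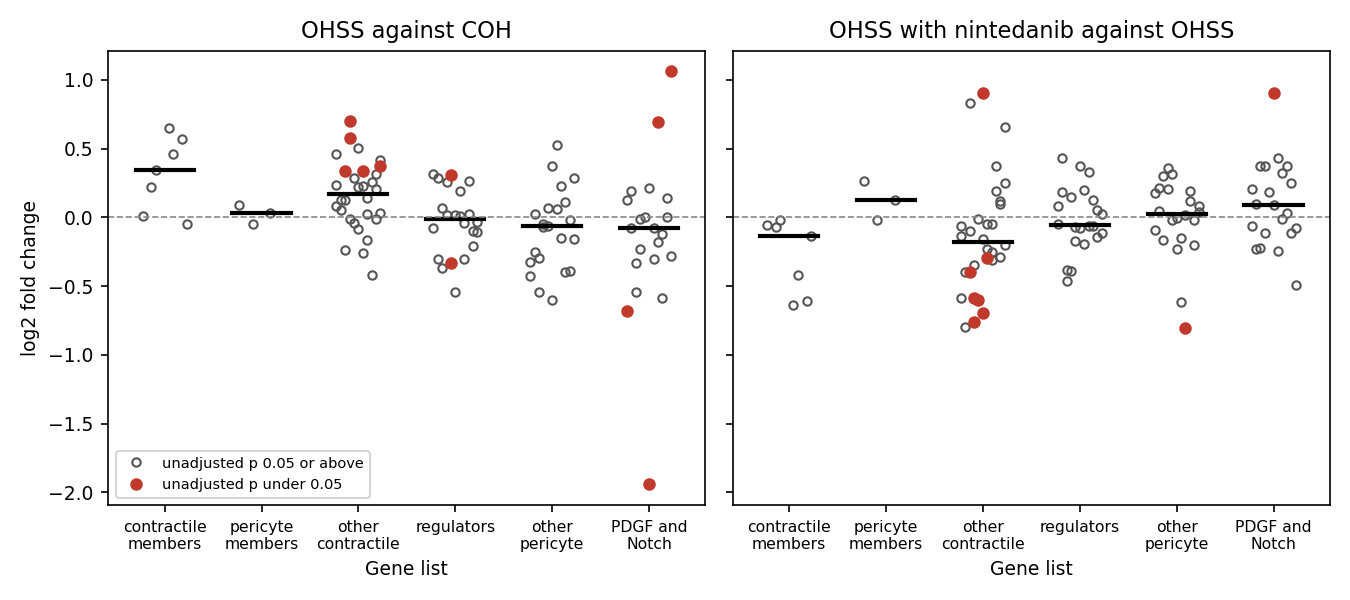
Log2 fold change of every tested gene in the 2 sets of members and 4 related lists, for OHSS against COH (left) and nintedanib against OHSS (right), with a bar at each list's median and filled red points for an unadjusted edgeR p under 0.05. Sideways spread within a list carries no meaning. The 30 other contractile genes have a median of 0.17 in OHSS against COH and of -0.18 with nintedanib against OHSS, while the medians of the regulators, the other pericyte genes and the PDGF and Notch genes lie between -0.08 and 0.09 in both.

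Of the 25 symbols listed for regulators of the mural programme, 23 were in the count table and 22 were tested. By edgeR and by DESeq2 none of these was called at an adjusted p below 0.05. In OHSS against COH 11 stood higher and 11 lower, and the unadjusted edgeR threshold was passed by 1 in each direction, close to the background of 4.59% and 4.24% of tested genes. Without 1 library the counts ran from 0 to 2 higher and from 0 to 3 lower, and both were 0 without replicate 2 of COH. The 2 genes were Rock2, a kinase that raises contraction by inhibiting myosin phosphatase, at 129.6 and 134.0 CPM in COH and 166.8 and 159.9 in OHSS, and Prrx1, a transcription factor of mesenchymal cells, at 52.9 and 51.7 against 39.5 and 43.7. Prrx1 stood at 39.8 and 39.4 CPM with nintedanib, a difference from COH of -0.40 (SE 0.106), with an edgeR adjusted p of 0.484. With nintedanib against COH the unadjusted edgeR threshold was passed by 0 regulators higher and 2 lower, beside 5.62% and 4.08% of tested genes. The 2 were Prrx1 and Foxs1, the latter at -0.75 (SE 0.233). With nintedanib against OHSS 10 of the 22 stood higher and 12 lower, with a median of -0.05.

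Of the 24 symbols listed for other pericyte genes, 22 were in the count table, and all 22 were tested. Of these, 8 stood higher in OHSS than in COH and 12 higher with nintedanib than in OHSS, with medians of -0.06 and 0.03. Neither edgeR nor DESeq2 called any at an adjusted p below 0.05. The unadjusted edgeR threshold was passed by 0 and by 1, beside 8.82% and 7.42% of tested genes. That gene was Kcnj8, a pore subunit of the ATP-sensitive potassium channel of pericytes, at 17.4 and 15.4 CPM in COH, 18.2 and 20.4 in OHSS and 12.8 and 9.29 under nintedanib. The nintedanib minus OHSS difference of Kcnj8 was -0.81 (SE 0.202), with an edgeR adjusted p of 0.653 and a DESeq2 adjusted p of 0.0714. With nintedanib against COH the unadjusted edgeR threshold was passed by 0 higher and 1 lower, beside 5.62% and 4.08% of tested genes. The latter was again Kcnj8, at -0.58 (SE 0.202). Abcc9 of the same list stood the other way, at 54.4 and 70.4 CPM in COH, 68.3 and 50.7 in OHSS and 81.0 and 72.0 under nintedanib. Its nintedanib minus OHSS difference was 0.36 (SE 0.203), with an edgeR adjusted p of 0.729. Rgs5 was at its highest in the nintedanib libraries, where Kcnj8 was at its lowest. The summed level of the 10 endothelial markers was 712 and 692 CPM in COH, 585 and 609 in OHSS and 743 and 772 under nintedanib. All 10 had a higher fitted level with nintedanib than in OHSS, beside 51.5% of tested genes, and 5 of them an unadjusted edgeR p below 0.05, beside 3.95%. In OHSS against COH 8 of the 10 stood lower, 2 at that p, beside 4.24% of tested genes. At the adjusted threshold edgeR called 0 in both. DESeq2 called 1 in each, beside 1.12% of tested genes with nintedanib against OHSS and 1.83% in OHSS against COH. Whether the Rgs5 values follow from the amount of vessel was not tested.

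The 21 genes of PDGF and Notch signalling include ligands, receptors and targets. Pdgfd, a ligand of the PDGF receptors, measured 17.4 and 18.8 CPM in COH, 40.3 and 35.2 in OHSS and 31.7 and 22.2 under nintedanib. The OHSS minus COH difference was 1.06 (SE 0.203), with an edgeR adjusted p of 0.442 and a DESeq2 adjusted p of 0.00184. Pdgfa, another ligand, stood lower, at 21.8 and 24.6 CPM in COH and 13.1 and 15.8 in OHSS. Pdgfrb, the receptor on pericytes and a target of nintedanib, was at 257.5 and 256.9 CPM in COH, 171.0 and 237.0 in OHSS and 211.3 and 139.0 under nintedanib. Its groups in OHSS and with nintedanib overlapped, and the libraries of both lay below both COH libraries. Without overlap, 22.9% of tested genes stood lower in OHSS than in COH and 22.7% lower with nintedanib than in COH.

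Among the Notch genes, Notch4, a receptor of endothelium, measured 16.2 and 11.7 CPM in COH, 21.9 and 23.4 in OHSS and 30.6 and 26.1 under nintedanib. The nintedanib minus COH difference of Notch4 was 1.02 (SE 0.199), with an edgeR adjusted p of 0.384 and a DESeq2 adjusted p of 0.00262. Notch3, by contrast, varied between 50.5 and 73.6 CPM with its extremes both in OHSS. Rbpj, the DNA-binding partner of activated Notch, measured 63.3 and 70.4 CPM in COH, 15.7 and 19.1 in OHSS and 21.4 and 43.8 under nintedanib. Its OHSS minus COH difference was -1.94 (SE 0.352), with an edgeR adjusted p of 0.425 and a DESeq2 adjusted p of 0.000101. In the M21 annotation 6.86% of the read-length stretches of Rbpj also occur in the pseudogene Rbpj-ps3, so its count is uncertain. Over the 21 genes, 8 stood higher and 13 lower in OHSS, with a median of -0.08, beside 49.6% of tested genes higher. An unadjusted edgeR p below 0.05 was reached by 2 higher and 2 lower, beside 4.59% and 4.24% of tested genes, and edgeR called none of the 21. Pdgfd, Rbpj and Notch4 were named for their small p. The DESeq2 background is 1.83% in OHSS against COH and 2.43% with nintedanib against COH. How many of the 21 DESeq2 called is not given here.

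Genes whose profile over the 6 libraries lay nearest the contractile average were sought among 8300 non-member genes. These were limited to genes with a mean of at least 5 CPM and a range over the libraries above a set fraction of that of the average. Genes with a clearly narrower range than the average could therefore enter. The measure was the root mean square difference of centred log2 CPM. The nearest was Shc2 at 0.0263, with 18.1 and 17.9 CPM in COH, 22.3 and 21.1 in OHSS and 13.9 and 22.1 under nintedanib. Steap3, Abcb6, Adgrl3 and Tpmt followed at 0.0712, 0.0735, 0.0742 and 0.0871. Among the members themselves Actg2 lay nearest, at 0.104, and Des was the farthest of the contractile genes at 0.415. Cspg4 lay at 0.358, Notch3 at 0.359 and Rgs5 at 0.36, all nearer than Des. Each contractile gene is part of the average it is compared with, and the measure grows with the size of a gene's changes. The order of the members therefore does not rank how alike their patterns are. With 6 libraries and 8300 genes, near matches of this kind are a description and carry no test.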

How the data were processed

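Ovary RNA from 6 libraries was read from 1 table of raw whole-number counts that the authors deposited for 51826 genes. Per the labels' protocols, RNA came from flash-frozen ovaries and libraries were built with an mRNA kit. Build mm8, StringTie 1.3.3b, HISAT2 2.1.0 and Trimmomatic 0.36 appear in the submitters' processing notes; the sources used here do not give the counting program, its use of strand or its treatment of multiply mapped reads. Counts came to 72.1% to 74.0% of the reads and 144.2% to 148% of the pairs in the deposited read summaries, so a pair appears to count as 2, and counting error exceeds what a count alone gives.

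Groups and replicate numbers came from the sample titles. Genes were filtered with filterByExpr and scaled with TMM (factors 0.961 to 1.03) in edgeR 4.0.16 (R 4.3.3). All 3 groups entered 1 fit, tested by the two-sided quasi-likelihood F test with 3 residual and 2.41 prior degrees of freedom and Benjamini-Hochberg adjustment over all 19027 genes tested. Standard errors and 95% intervals of log2 fold changes were derived from the F statistic on 5.41 degrees of freedom. Exact permutation of 2 against 2 libraries gives no two-sided p below 0.333. Alternatives were DESeq2 1.42.0, limma voom 3.58.1, other scalings and filters, a robust prior, a replicate block, pairs of groups and each library left out. Their use on the related lists was chosen after seeing the data. The script was tested on simulated data. Exon lengths, overlaps and shared read-length stretches came from GENCODE M21 and promoters from RefSeq on GRCm38.p6. The members and the lists were chosen with earlier results of these data known, and no test was made over a list. Besides the members, the 3 genes with the smallest p per related list and comparison (at a mean of at least 2 CPM), the 5 nearest profiles and the most abundant markers of other cell types could be named; Ppp1r12a, Synpo2, Pdgfrb, Actc1 and other markers were named after their values were seen.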

Additional observations from a re-analysis of the deposited data

How the results depend on the processing

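No member passed an adjusted p of 0.05 under any alternative, and the smallest adjusted p of a member was 0.358. Of 480 member values under alternatives, 445 kept their direction and 35 did not, among 17 of the 30 member results. With library size as the only scaling, Acta2 (-0.053) and Cspg4 (-0.033) changed sign in OHSS against COH, and Acta2 (0.017), Myh11 (0.053), Mylk (0.0060) and Notch3 (0.051) with nintedanib against OHSS. Acta2 was -0.0014 without the filter in OHSS against COH. With limma voom, Notch3 was 0.00064 with nintedanib against OHSS, and Actg2 (-0.0024) and Cnn1 (-0.067) changed sign with nintedanib against COH. Each of these values lies near 0 on the log2 scale. Leaving out 1 library at a time moved further values across 0, and of those that kept their sign the widest were, with nintedanib against OHSS, Des (-1.67 to -0.0049), Cnn1 (-1.26 to -0.20), Actg2 (-0.86 to -0.082) and Rgs5 (0.094 to 0.45), and Des (0.30 to 0.91) in OHSS against COH. In OHSS against COH the ranges were -0.025 to 0.049 for Acta2, -0.11 to 0.026 for Tagln, -0.090 to 0.26 for Rgs5, -0.085 to 0.15 for Cspg4 and -0.35 to 0.21 for Notch3. With nintedanib against OHSS they were -0.13 to 0.020 for Acta2, -0.19 to 0.13 for Myh11, -0.29 to 0.0078 for Tagln, -0.069 to 0.29 for Cspg4 and -0.28 to 0.28 for Notch3. With nintedanib against COH they were -0.12 to 0.030 for Acta2, -0.39 to 0.38 for Actg2, -0.61 to 0.45 for Cnn1, -1.10 to 0.56 for Des, -0.039 to 0.32 for Cspg4 and -0.21 to 0.058 for Notch3.

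The count of genes called by edgeR in OHSS against COH was 2, and 4 without the filter, 348 in DESeq2, 0 in limma voom, 0 with only the 2 groups compared and 0 to 2 without 1 library. With nintedanib against OHSS it was 1, and 2 without the filter, 213 in DESeq2, 0 with only the 2 groups and 0 to 27 without 1 library. With nintedanib against COH it was 5, and 436 in DESeq2, 2 in limma voom, 2 with only the 2 groups and 0 to 45 without 1 library. The highest of these, 27 and 45, came without replicate 1 of nintedanib. The share of all tested genes at an unadjusted p below 0.05 is given here for the main edgeR fit only. It was 8.82% in OHSS against COH, 7.42% with nintedanib against OHSS and 9.7% with nintedanib against COH. Counts of members or listed genes at that p under the alternatives therefore have no background here. Whether they exceed the share of all genes cannot be told. Members at an unadjusted p below 0.05 numbered 0 in each comparison of the main fit. In OHSS against COH they numbered 1 in DESeq2, 2 with only the 2 groups and 0 to 2 without 1 library. With nintedanib against OHSS they numbered 0 to 3 without 1 library, and with nintedanib against COH 1 with only the 2 groups and 0 to 3 without 1 library. The members' median ran from 0.10 to 0.23, from -0.16 to -0.0068 and from -0.033 to 0.26 when 1 library was left out, in the same order of comparisons. The cause was not tested.

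Replicate numbers are shared across groups in the titles, but same-numbered libraries did not deviate together, with correlations of -0.00072, 0.048 and -0.0023 between the pairs of groups. With a replicate block the counts of genes called were 1, 0 and 2, and Cnn1 with nintedanib against COH was -0.016. With 2 libraries per group, differences of the size seen for Des between libraries of 1 group limit what can be resolved, and for Des depth does not.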
